A study of Mus musculus with 15 samples.

Results

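The genes described here build 2 membrane specialisations of heart muscle, the caveola and the transverse (T-) tubule. They were chosen by name, as the rows of the deposited RPKM table that match Bin1, Cav1, Cav2, Cav3 or Dysf, and 4 of the 5 names matched among 9666 rows. Bin1, the amphiphysin that bends membrane into tubules, is not analysed here. Ventricular cardiomyocytes were isolated from wild-type C57BL/6 mice, with no treatment named, at postnatal day 1 (P1, n = 4), at postnatal day 3 (P3, n = 4) and from adults of 8 to 12 weeks (n = 7), and their total RNA was sequenced. The series was made to look for mediators of heart muscle regeneration, which neonatal mice are capable of and adults largely are not. Levels are RPKM, reads scaled to gene length and library size, as the authors deposited them, and a change is the difference of mean log2(RPKM + 0.5) between 2 groups.

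Caveolae are small flask-shaped pits of the plasma membrane, coated by caveolins and cavins, that buffer membrane tension and gather signalling proteins. Caveolin-1 (Cav1) and its partner caveolin-2 (Cav2) form the coat in endothelial cells, fibroblasts, smooth muscle and adipocytes, while caveolin-3 (Cav3) forms it in striated muscle. T-tubules are invaginations that carry the action potential into the cardiomyocyte, and in rodents they grow after birth. Cav3 takes part in their formation, and dysferlin (Dysf), a calcium-binding protein of sarcolemma and T-tubule, helps reseal torn membrane.

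All 4 genes lie on the plus strand of mouse chromosome 6 as protein-coding genes of mm10. Cav2 spans 17281185 to 17289115 and Cav1 spans 17306335 to 17341452, so that they are head-to-tail neighbours 17.2 kb apart. Dysf spans 84008590 to 84211060 and Cav3 spans 112459505 to 112472872. Cav1 and Cav2 ran in the same order of groups and together among adults, though not within P3, and Cav3 did not follow them. For this reason the 250 bases before the RefSeq start of the 3 caveolin genes are shown. They come from RefSeq, build GRCm38.p6, plus strand, at chr6:17306085-17306334 for Cav1, chr6:17280935-17281184 for Cav2 and chr6:112459255-112459504 for Cav3, and capitals mark the E-box CANNTG and the GC box GGGCGG on either strand.
Cav1: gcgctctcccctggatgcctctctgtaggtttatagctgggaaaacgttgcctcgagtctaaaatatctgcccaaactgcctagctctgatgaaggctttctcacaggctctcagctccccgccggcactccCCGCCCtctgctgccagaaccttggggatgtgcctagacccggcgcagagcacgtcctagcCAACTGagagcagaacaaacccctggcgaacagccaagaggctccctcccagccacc
Cav2: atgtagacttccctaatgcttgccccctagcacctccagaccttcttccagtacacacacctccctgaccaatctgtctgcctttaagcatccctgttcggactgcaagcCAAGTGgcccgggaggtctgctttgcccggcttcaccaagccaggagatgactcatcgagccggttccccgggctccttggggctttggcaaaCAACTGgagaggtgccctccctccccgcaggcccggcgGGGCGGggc
Cav3: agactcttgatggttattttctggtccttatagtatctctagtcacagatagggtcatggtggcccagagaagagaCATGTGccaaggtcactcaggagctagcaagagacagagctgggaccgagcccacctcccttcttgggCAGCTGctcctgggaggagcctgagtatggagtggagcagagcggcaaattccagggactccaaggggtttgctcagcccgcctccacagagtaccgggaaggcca

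The windows of Cav1 and Cav2 each held a GC box, and that of Cav3 held none. GC boxes were found in 32.7% of all 32851 promoter windows of this length. An E-box stood in all 3 windows, as it did in 66.2% of all windows, and only that of Cav3 had the form CAGCTG, present in 13% of all windows and counted among the E-boxes too. The motifs GGAATG (12.6% of all windows) and TATAAA (12.4%) were also searched on both strands. Cav1 had 1 TATAAA match, 221 bases before the start, and no other match to either was found in these windows. A match is a string of letters here and was not tested as a binding site.

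Features of the libraries bear on every value below. The median tested gene was 1.36 lower in adult than in P1 and 1.48 lower in adult than in P3 on the log2 scale, against 0.09 higher in P3 than in P1, so changes are also given after dividing each library by the median RPKM of its listed genes (median scaling). The cardiomyocyte markers, 11 of 11 in the table, summed to 4367 to 9630 RPKM in P1, 627.6 to 5971 RPKM in P3 and 16028 to 31158 RPKM in adult. In P3 replicates 2 to 4 they summed to 627.6 to 1339 RPKM, below every other library. Endothelial markers, 11 of 17 in the table, summed to 223 to 504 RPKM in P1, 751 to 1803 RPKM in P3 and 3.36 to 236 RPKM in adult, and fibroblast markers, 5 of 10, to 159.6 to 1338 RPKM in P1, 369 to 794 RPKM in P3 and 4.59 to 71.4 RPKM in adult, the 1338 RPKM being P1 replicate 1. Of the 5 fibroblast markers, 4 were called lower in adult than in P1 and than in P3, against 62.7% of all tested genes in each comparison. Fbln1, named after its values were seen, was not called (0.61 and 0.45). By mean over all 15 libraries the highest were the matrix genes Postn, Dcn and Col3a1, which averaged 233, 102 and 116 RPKM in P1, 285, 220.0 and 73.8 RPKM in P3 and 2.19, 14.8 and 3.77 RPKM in adult. Mural cell markers, 4 of 8, summed to 120.5 to 513 RPKM in P1, 437 to 720 RPKM in P3 and 31.8 to 120.3 RPKM in adult. Much of that sum was Acta2, smooth muscle actin, which averaged 326, 495 and 27.4 RPKM in P1, P3 and adult. Acta2 was lower in adult than in P1 (-3.68), while the listed markers Rgs5 (1.62) and Abcc9 (0.87) were not called. Which cells gave the reads of these markers was not tested. The 6 epicardial, 8 immune and 10 skeletal muscle markers had 0 genes in the table, which lists only genes above 0.1 RPKM in every library. Fewer cells of a type and less RNA per cell cannot be told apart in such bulk libraries.

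Cav1, the structural caveolin of most non-muscle cells, was the most abundant of the 4 genes at P3 and spread widely in adults. It had 76.6, 61.5, 43.4 and 74.8 RPKM in the 4 P1 libraries and 166, 239.8, 193 and 143 RPKM in the 4 P3 libraries. In the 7 adult libraries it had 0.801 RPKM at the lowest, 11.1 at the median and 60.7 at the highest, and the lowest value, in replicate 7, rests on 38 reads, the other 6 libraries having 9.0 to 60.7 RPKM. All P3 libraries lay above all P1 and adult libraries, and the adult range ran into the P1 range. The group means were 64.1 RPKM ± 15.4 (SD, n = 4) in P1, 185 ± 41.5 (SD, n = 4) in P3 and 23.1 ± 21.7 (SD, n = 7) in adult.

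**Figure D1:**
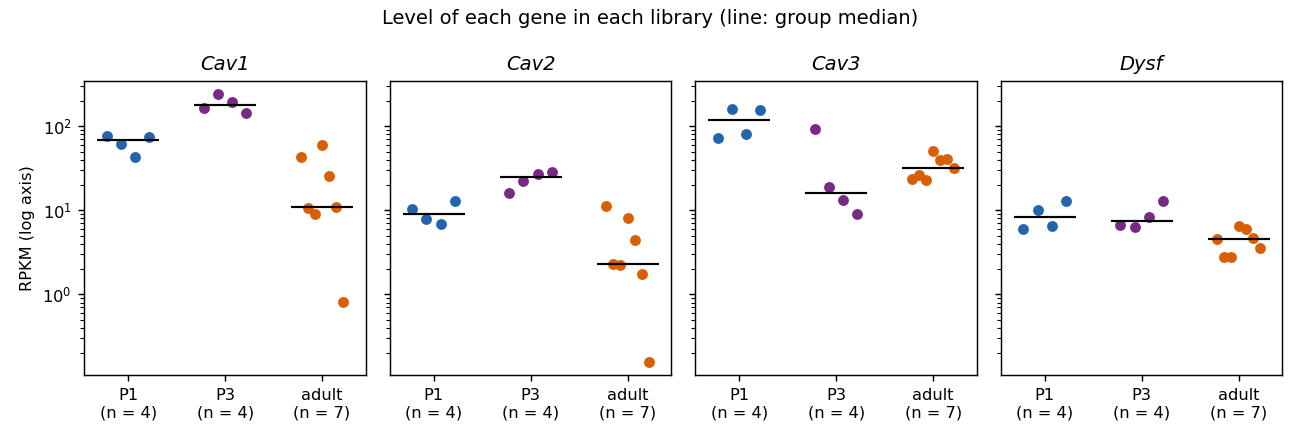
RPKM of Cav1, Cav2, Cav3 and Dysf in each library on a log axis, 1 point per library in replicate order, with the group median as a line. Cav1 and Cav2 were highest in the P3 libraries and spread widely among adults, Cav3 was high in P1 and in 1 P3 library, and Dysf stayed between 2.79 and 12.9 RPKM.

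Cav1 was lower in adult than in P3 by limma, with a change of -3.69 (SE 0.69, adjusted p = 6.2e-05), and lower in adult than in P1, with -2.15 (SE 0.69, adjusted p = 0.0074). Calls in that direction, which need an adjusted p under 0.05 and a log2 change of at least 1, were made for 62.7% of all 9389 tested genes in each of these comparisons, and calls in either direction for 71.9% in adult against P3 and 67.0% in adult against P1. Without overlap, 64.3% of genes were lower in adult than in P3. The median-scaled values were -2.04 against P3 (adjusted p = 0.02), still a call, and -0.60 against P1 (adjusted p = 0.48), no longer one. The call against P1 also ended with quantile normalization (-0.97) and with an equal RPKM sum (-1.49, adjusted p = 0.057). Between the neonatal days Cav1 was 1.53 higher in P3 (SE 0.77, adjusted p = 0.21), which did not pass the threshold although the 4 libraries of each day did not overlap. In that comparison 6.71% of genes were called in either direction, 1.4% were called higher and 10.7% were higher without overlap.

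Cav2, which joins Cav1 in mixed oligomers, showed the same order at a lower level. It had 10.3, 7.87, 6.89 and 12.9 RPKM in P1, 16.1, 22.3, 27.0 and 28.9 RPKM in P3, and 0.157, 2.32 and 11.3 RPKM as the lowest, median and highest adult values. The P3 libraries again lay above all others, while 2 adult libraries, replicates 1 and 4, reached the P1 range. Cav2 was lower in adult than in P3 (-2.77, SE 0.53, adjusted p = 8.6e-05) and in adult than in P1 (-1.5, SE 0.53, adjusted p = 0.014). Neither call held after median scaling (-1.25, adjusted p = 0.079, and -0.09, adjusted p = 0.91). The call against P3 held with quantile normalization (-1.42, adjusted p = 0.036) and with an equal RPKM sum (-2.29, adjusted p = 0.0013). The call against P1 ended with both (-0.11 and -0.90) and also against adult replicates 1 to 4 alone (-0.87). In P3 against P1 the change was 1.27 (SE 0.60, adjusted p = 0.18).

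By mean over all 15 libraries, which weighs the neonatal levels most, the highest endothelial markers were Eng, Emcn and Cdh5. They averaged 90.3, 57.8 and 49.4 RPKM in P1, 262, 207 and 179 RPKM in P3 and 6.02, 7.48 and 10.2 RPKM in adult, and their changes in adult against P1 (-4.34, -3.74 and -2.75) were larger than the median of the list (-2.31). Among adult libraries, Cav1 and Cav2 were high where the endothelial markers were high. Among P3 libraries Cav1 was not, since replicate 4 had the highest endothelial sum, 1803 RPKM, and the least Cav1, 143 RPKM. That library had the most Cav2 of the P3 libraries, 28.9 RPKM. The adult library with the least Cav1, replicate 7, had 38 reads of Cav1 and 9 of Cav2, and its endothelial markers summed to 3.36 RPKM against 24.5 to 236 in the other 6 adults. The adult library with the most Cav1, replicate 4, also had the highest endothelial sum. Over the 7 adult libraries the mean log2 level of the endothelial markers and that of Cav1 had Pearson's r = 0.973 (exact permutation p = 4e-04, adjusted p = 0.0032) and Spearman's rho = 0.964 (exact permutation p = 0.0028, adjusted p = 0.022). Without replicates 4 and 7, the 2 farthest from the median, r was 0.997. For Cav2 the values were r = 0.953 (exact permutation p = 0.0018, adjusted p = 0.0044), rho = 0.929 (exact permutation p = 0.0067, adjusted p = 0.027) and r = 0.974 without the same 2 libraries.

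Fibroblast markers ran with Cav1 over the same adult libraries (r = 0.941, exact permutation p = 9.9e-04, adjusted p = 0.004; rho = 0.893, exact permutation p = 0.012, adjusted p = 0.033; r = 0.947 without replicates 1 and 4). Cav1 and Cav2 had r = 0.974 with each other (exact permutation p = 0.0022, adjusted p = 0.0044; rho = 0.857, exact permutation p = 0.024, adjusted p = 0.038; r = 0.958 without replicates 4 and 7). Cav3 and the endothelial markers had r = 0.327 (exact permutation p = 0.47, adjusted p = 0.47; rho = 0.357; r = -0.109 without replicates 4 and 7), and Dysf and the endothelial markers r = 0.696 (exact permutation p = 0.081, adjusted p = 0.1; rho = 0.679; r = 0.61 without them). Cav3 and the cardiomyocyte markers had r = 0.714 (exact permutation p = 0.088, adjusted p = 0.1; rho = 0.571; r = 0.482 without replicates 2 and 3). Cav3 and Dysf had r = 0.786 (exact permutation p = 0.046, adjusted p = 0.074; rho = 0.857, adjusted p = 0.038 by the same exact test), with r = 0.536 without replicates 3 and 4. These are all 8 relations computed in adults, chosen after the values were seen, and all share the libraries' own depth and scale. Adult replicates 1 to 4 and 5 to 7 differ in sequencing depth, and 4 and 3 libraries were too few to repeat the relations within each. Which cells gave the Cav1 and Cav2 reads was not tested.

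Set against the endothelial markers of its own library, the level of Cav1 overlapped between the 3 ages. The log2 level of Cav1 minus the mean log2 level of those markers was 1.77 in adult and 1.40 in P1 (difference 0.38, two-sided exact permutation p = 0.22, adjusted p = 0.26) and 1.2 in P3 (difference 0.58 between adult and P3, exact permutation p = 0.18, adjusted p = 0.24). A p that misses the threshold does not show that they were equal, and the values ran from 0.71 to 2.16 in adult, 1.15 to 1.91 in P1 and 0.07 to 1.91 in P3. Cav2 was higher against the same markers in adult, by 1.03 over P1 (exact permutation p = 0.0091, adjusted p = 0.018) and by 1.5 over P3 (exact permutation p = 0.003, adjusted p = 0.0073). Adjusted values are over the 12 differences of this kind, which were added after the values were seen, and Cav2 in adult replicate 7 rests on 9 reads.

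**Figure D2:**
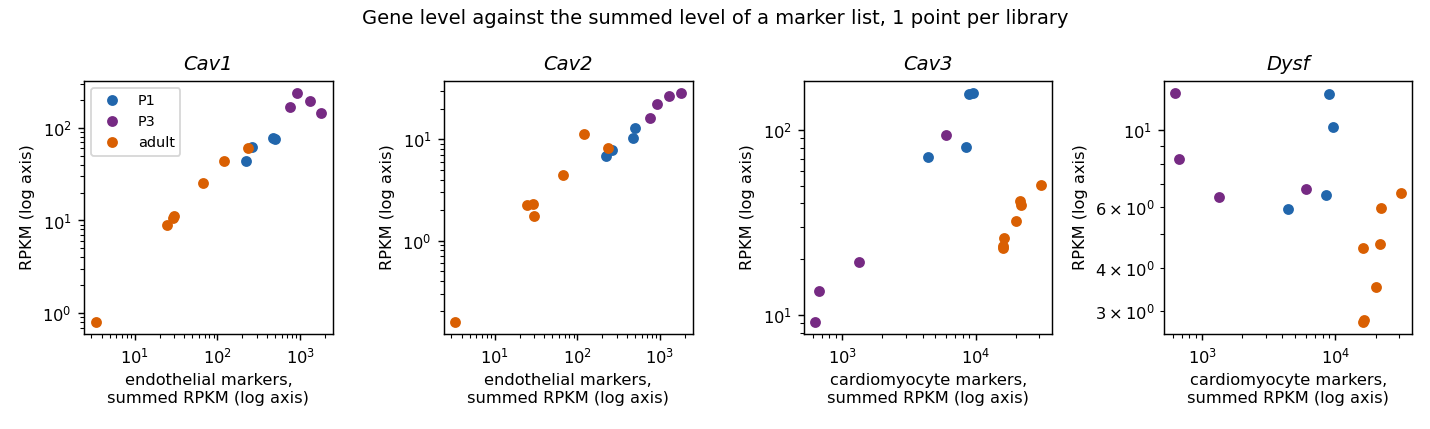
RPKM of each gene against the summed RPKM of a marker list in the same library, both on log axes, 1 point per library. Among adults Cav1 and Cav2 were lowest, at 0.801 and 0.157 RPKM, in replicate 7, which had the lowest endothelial sum, and among P3 libraries Cav1 was lowest at the highest endothelial sum, while adult libraries held 23.0 to 50.5 RPKM of Cav3 at cardiomyocyte marker sums of 16028 RPKM and more, and P3 replicates 2 to 4 held 9.10 to 19.2 RPKM at 627.6 to 1339 RPKM.

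Cav3, the muscle caveolin, ran in another order, with P1 highest. It had 71.8, 159.5, 80.6 and 157 RPKM in P1 and 94.2, 19.2, 13.4 and 9.10 RPKM in P3, and adults ran from 23.0 RPKM through a median of 32.2 to 50.5. P3 replicate 1 lay within the P1 range and P3 replicates 2 to 4 lay below every adult library, while no adult library reached a P1 library. Means were 117 RPKM ± 47.4 (SD, n = 4) in P1, 34.0 ± 40.4 (SD, n = 4) in P3 and 33.7 ± 10.4 (SD, n = 7) in adult. The P3 mean includes replicate 1 at 94.2 RPKM, and the P3 median was 16.3 RPKM against 32.2 in adult.

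In limma, Cav3 was lower in P3 than in P1 with a change of -2.30 (SE 0.51, adjusted p = 0.016), where 5.31% of all tested genes were called lower. The call ended without P1 replicate 2 (-2.12, adjusted p = 0.067), P3 replicate 3 (-2.07, adjusted p = 0.077) or P3 replicate 4 (-1.90, adjusted p = 0.064), and without P3 replicate 1 the change was -3.0. Cav3 was lower in adult than in P1 (-1.74, SE 0.45, adjusted p = 0.0016), a change close to that of the median gene, and after median scaling it was -0.14 (adjusted p = 0.79). That call also ended with quantile normalization (-0.65) but held with an equal RPKM sum (-1.05, adjusted p = 0.02). Without overlap, 65.1% of all genes were lower in adult than in P1. Adult against P3 gave 0.56 (SE 0.45, adjusted p = 0.25), which became a call under median scaling (2.24, adjusted p = 1.5e-04), quantile normalization (1.85) and an equal sum (1.12), and without P3 replicate 1 (1.26, adjusted p = 0.0012).

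**Figure D3:**
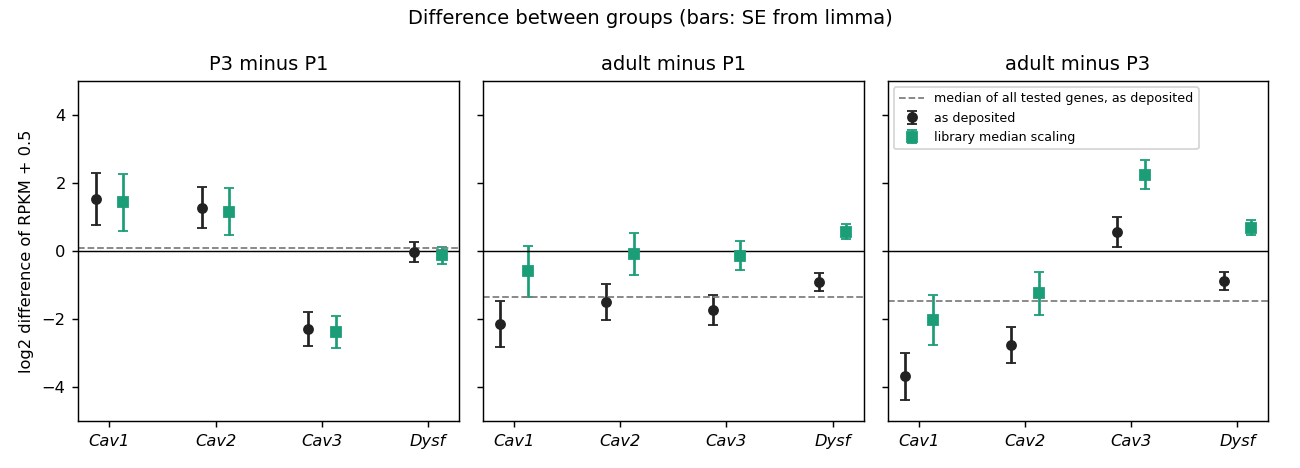
Log2 difference of each gene between groups, with its SE from limma, on the deposited scale (circles) and after dividing each library by its median (squares). The dashed line is the median of all tested genes on the deposited scale, at -1.36 for adult minus P1 and -1.48 for adult minus P3, and Cav3 and Dysf in adult minus P3 stood above it while Cav1 and Cav2 stood below it.

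The low Cav3 of P3 replicates 2 to 4 stood beside their low cardiomyocyte markers. The log2 level of Cav3 minus the mean log2 level of the cardiomyocyte markers in the same library was -1.36 in P3 and -1.34 in P1 (difference -0.02, exact permutation p = 1.0, adjusted p = 1.0), with -1.71 to -1.11 in P3 and -2.13 to -0.87 in P1. In adult it was -4.38, and between -4.82 and -3.81, a difference of -3.05 from P1 and of -3.02 from P3 (exact permutation p = 0.003 for each, the smallest that 330 splits allow, adjusted p = 0.0073). The markers themselves were higher in adult. Of 11, 7 were called higher in adult than in P1 and 11 higher than in P3, against 4.32% and 9.16% of all genes. The 3 highest by mean over all 15 libraries, the myosin light chains Myl2 and Myl3 and the troponin Tnni3, were 4.12, 3.74 and 4.24 higher in adult than in P3. The part of cell mix in the P3 values of Cav3 was not tested.

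Dysf, the membrane repair protein, was the flattest of the 4. It had 5.92, 10.2, 6.51 and 12.8 RPKM in P1 and 6.77, 6.41, 8.26 and 12.9 RPKM in P3, and ran from 2.79 RPKM through a median of 4.58 to 6.58 in adult. The ranges of the neonatal days nearly coincided, and the upper adults overlapped the lower neonatal libraries. The change was -0.92 in adult against P1 (SE 0.26, adjusted p = 0.0037) and -0.89 in adult against P3 (SE 0.26, adjusted p = 0.0044), both short of the fold threshold, and -0.03 in P3 against P1 (SE 0.30, adjusted p = 0.96).

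The direction of Dysf between adult and neonate depended on the scaling. After median scaling it was 0.57 in adult against P1 (adjusted p = 0.032) and 0.69 in adult against P3 (adjusted p = 0.01), and with quantile normalization 0.50 and 0.60. Against the mean log2 level of the cardiomyocyte markers Dysf stood at -7.18 in adult and -4.96 in P1 (difference -2.22) and at -2.70 in P3 (difference -4.47 between adult and P3, exact permutation p = 0.003 and adjusted p = 0.0073 for each). The values ran from -7.84 to -6.66 in adult, -5.66 to -4.36 in P1 and -4.81 to -1.23 in P3. P3 minus P1 was 2.25 (exact permutation p = 0.086, adjusted p = 0.13). The median marker of that list was itself 1.47 higher in adult than in P1 and 3.74 higher than in P3. The group mean of Dysf was above that of 50.5% of listed genes in P1, 46.9% in P3 and 60.9% in adult. On the deposited scale Dysf passed the fold threshold in adult against P1 without adult replicate 4 (-1.02), P1 replicate 1 (-1.08) or P1 replicate 3 (-1.04), and in adult against P3 without P3 replicate 2 (-1.0).

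Linear ratios of RPKM between the genes within a library do not depend on its scale, while the tested log2 ratios, of RPKM + 0.5, do so at low values. There were 0.937, 2.60, 1.86 and 2.09 RPKM of Cav3 for each RPKM of Cav1 in P1, and 0.567, 0.0799, 0.0694 and 0.0636 in P3. In adults this ratio ran from 0.535 through a median of 2.43 to 40.2, the highest being replicate 7. Muscle caveolin thus exceeded Cav1 in 3 of 4 P1 libraries, in 0 of 4 P3 libraries and in 5 of 7 adult libraries. The mean log2 ratio was 1.22 in adult and -3.03 in P3 (difference 4.25, two-sided exact permutation p = 0.0061, adjusted p = 0.027), a call that ended when adult replicate 2, 3, 5 or 6, or P3 replicate 2, 3 or 4, was left out (adjusted p = 0.064 to 0.075, differences of 3.96 to 4.35). It was -3.03 in P3 and 0.81 in P1 (difference -3.84, exact permutation p = 0.029, the smallest that 70 splits allow, adjusted p = 0.071), and 1.22 in adult and 0.81 in P1 (difference 0.41, exact permutation p = 0.72, adjusted p = 0.72).

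**Figure D4:**
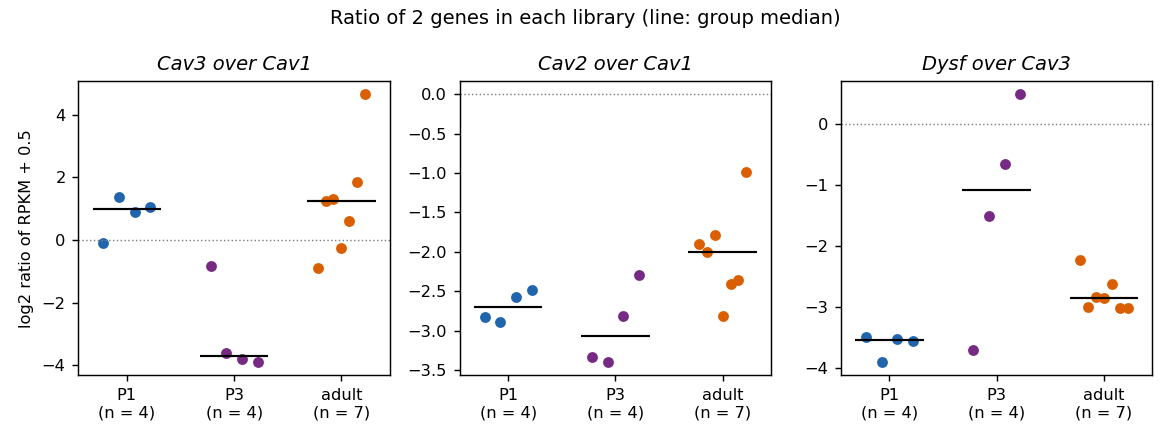
Log2 ratio of RPKM + 0.5 between 2 genes in each library, 1 point per library in replicate order, with the group median as a line. For Cav3 over Cav1, 3 of the 4 P3 libraries lay between -3.90 and -3.61, below all other libraries.

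Cav2 and Cav1 kept a narrower ratio. There was a median of 0.147 RPKM of Cav2 for each RPKM of Cav1 in P1, 0.118 in P3 and 0.196 in adult, with ranges of 0.128 to 0.172, 0.0931 to 0.202 and 0.135 to 0.259. Adult replicate 7, with a linear ratio of 0.196, had a log2 ratio of -0.99 with the pseudocount, and the difference between adult and P1 was 0.48, 0.66 and 0.76 with pseudocounts of 0.1, 0.5 and 1. None of its 3 comparisons passed (adjusted p = 0.077 for adult against P1, 0.071 for adult against P3 and 0.45 for P3 against P1, exact permutation tests). Dysf gained on Cav3 between P1 and adult, with a mean log2 ratio of -2.80 in adult and -3.62 in P1 (difference 0.82, exact permutation p = 0.003, adjusted p = 0.027), and every adult library lay above every P1 library. Against P3 the difference was -1.45 (exact permutation p = 0.033, adjusted p = 0.071), -2.23 (adjusted p = 0.025) without P3 replicate 1 and -0.84 (adjusted p = 0.19) without P3 replicate 4. In P3 against P1 it was 2.27 (exact permutation p = 0.11, adjusted p = 0.15). Adjusted values are over 9 tests, 3 ratios in 3 comparisons.

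By profile over the 15 libraries, measured as the root-mean-square difference of log2 values centred on each gene's mean, Cav1 and Cav2 were 0.60 apart, Cav3 and Dysf 1.17, and Cav1 and Cav3 2.26. Among 5108 genes of at least 10 RPKM in some group, the nearest to Cav1 were Adgrf5 (0.49), Tie1 (0.51) and H2-D1 (0.52). Those nearest to Cav2 were Ptprb (0.31), Itga6 (0.33) and Podxl (0.38). Those nearest to Cav3 were Bves (0.29), Hspb2 (0.30) and Nkx2-5 (0.35), and those nearest to Dysf, ranked among 5109 genes, were Ankrd46 (0.25), Ap1b1 (0.26) and Chmp6 (0.27).

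The cavins and other caveolar coat partners were called lower in adult at shares near those of all genes. Of 12 listed genes, all in the table, 9 were called lower and 0 higher in adult than in P1 (median -1.25), against 62.7% lower and 4.32% higher over all genes, and 6 were lower and 2 higher in adult than in P3 (median -0.88), against 62.7% and 9.16%. Ptrf, which encodes cavin-1, the cavin that caveolae need in every tissue, averaged 96.3 RPKM in P1, 98.8 in P3 and 18.2 in adult (-2.69 in adult against P1, adjusted p = 6.3e-06). Prkcdbp (cavin-3) was -3.50 and Ehd2, the ATPase at the caveolar neck, -3.71 in adult against P3. Ror1, a receptor kinase that acts as a caveolar scaffold, was -2.23 in adult against P1. The 2 genes higher in adult than in P3 were Murc (2.96), the muscle cavin-4, and Pacsin3 (1.76), an F-BAR protein of muscle caveolae, both named after their values were seen. After median scaling the coat list had 2 lower and 3 higher in adult against P1 and 3 lower and 6 higher against P3. All 9389 genes then had 1471 lower and 1997 higher against P1, 2022 lower and 2494 higher against P3, and 626 lower in P3 against P1. In P3 against P1, 5 of 12 were lower and 0 higher (median -0.38), against 5.31% and 1.4% of all genes, and median scaling left 5 lower. They were Murc (-2.06), Pacsin3 (-1.65), the membrane-remodelling ATPase Ehd4 (-1.58), the raft protein Flot1 (-1.11) and Ror1 (-1.02), with Ehd4 and Flot1 also named after their values were seen, in the comparison whose P3 replicates 2 to 4 were low in cardiomyocyte markers.

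T-tubule and dyad genes, which couple the action potential to calcium release, had medians above that of all genes in both comparisons with adult. Of 15, all in the table, 9 were called higher and 0 lower in adult than in P3 (median 1.28), against 9.16% and 62.7% of all genes, and 3 higher and 3 lower in adult than in P1 (median 0.14), against 4.32% and 62.7%, the lower ones becoming 5 without P1 replicate 1. The cardiomyocyte markers had higher medians still, 3.74 in adult against P3 and 1.47 in adult against P1, and P3 replicates 2 to 4 were low in them. Tcap, the Z-disc cap of titin, was 3.62 higher in adult than in P1 and 6.46 higher than in P3. Ryr2, the calcium release channel and also 1 of the 11 cardiomyocyte markers, was 1.47 and 3.39 higher, and Trdn, triadin of the release complex, named after its values were seen, 1.51 and 3.20 higher. The popeye proteins Popdc3 (-2.23) and Bves (-2.03), the second a binding partner of Cav3, and Slc8a1 (-1.56), the sodium-calcium exchanger, were lower in adult than in P1. In P3 against P1, 10 of 15 were lower and 0 higher (median -1.70), against 5.31% and 1.4% of all genes, in the same P3 libraries that were low in cardiomyocyte markers. Median scaling gave 10 higher and 0 lower in adult against P1, 15 and 0 in adult against P3, and again 10 lower in P3 against P1. Over all 9389 genes it gave 1997 higher and 1471 lower, 2494 higher and 2022 lower, and 626 lower in these comparisons.

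**Figure D5:**
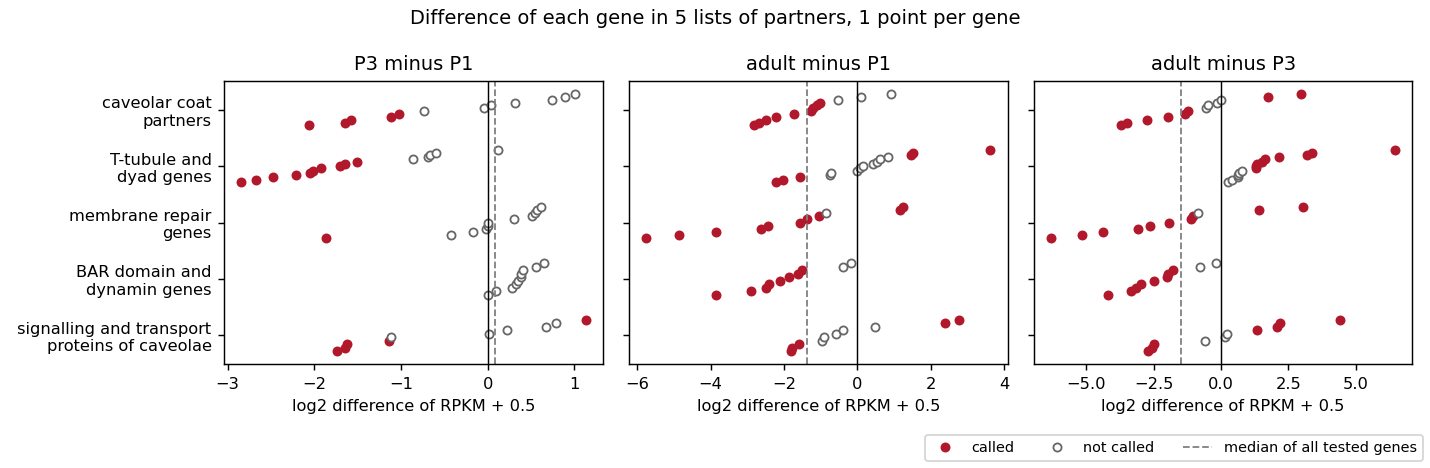
Log2 difference of each gene of 5 partner lists in the 3 comparisons, filled where limma called it, with the median of all tested genes as a dashed line. T-tubule and dyad genes lay right of that line in adult minus P3 and mostly left of it in P3 minus P1, while 8 of 10 BAR domain and dynamin genes lay left of it in each comparison with adult.

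Of 11 membrane repair genes in the table, of 14 listed, 8 were lower and 2 higher in adult than in P1 (median -1.56), against 62.7% and 4.32% of all genes, and 8 and 2 in adult than in P3 (median -1.93), against 62.7% and 9.16%. The lower ones included the calcium-dependent membrane binders Anxa2 (-5.75 in adult against P1) and Anxa5 (-3.86), S100a10 (-4.85), the partner of annexin A2, and the dysferlin-binding giant protein Ahnak (-2.63). Trim72, the muscle E3 ligase MG53 that seals wounds together with Dysf and Cav3, was 1.17 higher in adult than in P1 and 3.03 higher than in P3, and Syt7, a calcium sensor of membrane fusion, was 1.23 and 1.41 higher, both named after their values were seen. Without P1 replicate 1, 1 was higher in adult than in P1. Median scaling left 4 lower and 2 higher in each comparison with adult. Of all 9389 genes it called 1471 lower and 1997 higher against P1 and 2022 lower and 2494 higher against P3.

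Of 10 BAR domain and dynamin genes in the table, which bend and cut membrane, of 14 listed, 8 were lower and 0 higher in adult than in P1 (median -1.99) and likewise in adult than in P3 (median -2.24), against 62.7% lower over all genes in each. The largest changes were those of endophilin Sh3gl1 (-3.85 in adult against P1) and the sorting nexins Snx9 (-2.90), Snx33 (-2.48) and Snx18 (-2.41). Median scaling left 4 lower and 2 higher against P1 and 4 lower and 1 higher against P3. Among all 9389 genes it called 1471 lower and 1997 higher, and 2022 lower and 2494 higher, in these 2 comparisons. In P3 against P1 0 of these 10 and 1 of the 11 repair genes were called, this being Trim72, lower in P3 (-1.86, limma, adjusted p = 0.024), against 6.71% of all genes.

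Of 10 signalling and transport proteins found in caveolae, of 13 listed, 3 were lower and 2 higher in adult than in P1 (median -0.75), against 62.7% and 4.32% of all genes, the lower ones being the G protein Gnai2 (-1.80) and the kinases Yes1 (-1.77) and Fyn (-1.58). The higher ones were the insulin-responsive glucose transporter Slc2a4 (2.76) and the fatty acid transporter Cd36 (2.39). Without P1 replicate 1, 5 were lower. In adult against P3, 4 were higher and 3 lower (median 0.18), against 9.16% and 62.7%. In P3 against P1, Fyn was higher (1.13) and 4 were lower (median of the list -0.55), against 1.4% and 5.31% of all genes. The lower ones included Slc2a4 (-1.65), the adenylyl cyclase Adcy5 (-1.62) and the beta-1 adrenergic receptor Adrb1 (-1.14), with Adcy5 and Adrb1 named after their values were seen. Median scaling gave 4 higher and 0 lower against P1 and 7 higher and 2 lower against P3. For all 9389 genes the same counts were 1997 higher and 1471 lower, and 2494 higher and 2022 lower. The lists were counted and not tested as sets, and a share near that of all genes is no result about a list.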

How the data were processed

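The authors deposited 1 table of RPKM values with 1 column for each of 15 libraries, all used here. HISAT2, Partek 6.6 and build mm10 are listed in the submitters' processing notes, and TRIzol and an Illumina kit in the labels' protocols. For annotation, counting options and strand, nothing was given in those sources, and reads of overlapping genes and of paralogs are uncertain. The table lists only genes above 0.1 RPKM in every library (lowest 0.1001). Whether samples are separate animals is unstated, and p-values cover only the variation among the libraries, possibly technical.

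Genes of at least 1 RPKM in at least 4 libraries (9389, with all 4 of these genes) were put on the log2(RPKM + 0.5) scale and fitted in limma 3.58.1 under R 4.3.3 (1 coefficient per group, eBayes with trend), adjusted by Benjamini-Hochberg over all tested genes. A log2 change on this scale understates the change of low genes. Ratios, marker differences and adult relations were compared by two-sided exact permutation tests, adjusted within families of 9, 12 and 8. The fits were tested on simulated data. Planned ratios and tests with Bin1 were not run. The marker differences, the adult relations and the list counts without P1 replicate 1, P3 replicate 1 or adult replicate 7 were added after seeing the data.

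RPKM values step in whole reads, which gave the reads behind each value, assuming that 1 step is 1 read. They were 38 to 6412 for Cav1 (whole in 13 of 15 libraries), 9 to 1088 for Cav2, 108 to 2040 for Cav3 and 193 to 1017 for Dysf. Sequencing depth relative to P1 replicate 3 was 0.559 to 0.988 in adult replicates 1 to 4, 1.496 to 1.53 in adult replicates 5 to 7 and 0.843 to 1.211 in neonatal libraries.

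Named genes are the 5 listed names; up to 4 called genes per partner list with the largest change in adult against P1 and up to 2 in adult against P3; the 3 highest genes per marker list; and the 3 nearest profiles per gene. The members, the lists and this rule were chosen with earlier results of these data known. Positions are from GENCODE M21, build mm10.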

Additional observations from a re-analysis of the deposited data

Results flagged for a closer look

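Among 21 sets of values, the 4 genes and 3 ratios in each group, 2 held a library far from the rest of its group. Chance would flag about 1 in 20 independent sets. These sets are not independent, since the ratios reuse the genes, and both flags rest on the same Cav3 value. Cav3 in P3 replicate 1 was at 94.2 RPKM, against 9.10 to 19.2 RPKM in the other P3 libraries. The log2 ratio of Cav3 over Cav1 in the same library was -0.82, against -3.90 to -3.61 in the others. The cardiomyocyte markers of that library summed to 5971 RPKM, against 627.6 to 1339 RPKM in the other P3 libraries. Their part in the gap was not tested.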

How the results depend on the processing

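Pseudocounts of 0.1 and 1, no filter on low values, a mean of at least 5 RPKM and eBayes without trend ended no call and reversed no direction of the 4 genes; the mean filter lowered the genes called between adult and P3 from 6751 to 4469 by testing fewer genes. With each library divided by its median, adult minus P1 was -0.60 for Cav1, -0.09 for Cav2 and -0.14 for Cav3, none called, and 0.57 for Dysf, reversed; adult minus P3 was -1.25 for Cav2, not called, 2.24 for Cav3, called, and 0.69 for Dysf, reversed, and 3468 genes were called between adult and P1 in place of 6293 (1997 higher and 1471 lower). With quantile normalization adult minus P1 was -0.97 for Cav1, -0.11 for Cav2, -0.65 for Cav3 and 0.50 for Dysf. Adult minus P3 was then -1.42 for Cav2 and 1.85 for Cav3, both called, and 0.60 for Dysf. In that setting 3336 genes were called between adult and P1 (1697 higher and 1639 lower). With an equal RPKM sum adult minus P1 was -1.49 for Cav1 and -0.90 for Cav2, neither called, and -1.05 for Cav3, still called. Adult minus P3 was then -2.29 for Cav2 and 1.12 for Cav3, both called, and P3 minus P1 was 0.10 for Dysf. The cause of these moves was not tested.

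Against adult replicates 1 to 4 alone, adult minus P1 was -0.87 for Cav2, not called, and -1.01 for Dysf, called; the Cav3 over Cav1 difference was -0.46 in adult minus P1, reversed, and 3.38 in adult minus P3, and Dysf over Cav3 in adult minus P1 was 0.89; these ratios did not pass with fewer splits, and 413 genes were called between P3 and P1. Against adult replicates 5 to 7 alone, Cav3 over Cav1 in adult minus P3 was 5.40 and Dysf over Cav3 in adult minus P1 was 0.74, neither past the threshold.

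Same-numbered libraries of different groups had deviations from their group means that correlated at -0.506 to 0.371 across genes. Differently numbered libraries were not compared, so these values cannot tell whether the replicate numbers of the titles pair the samples. A replicate block, in which adult replicates 5 to 7 carry no information on differences, gave -0.87 for Cav2 and -1.01 for Dysf in adult minus P1, and -2.30 for Cav3 in P3 minus P1 (adjusted p = 0.058), with 183 genes called between P3 and P1 in place of 630.

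With 1 library left out at a time, changes and counts ran, in adult minus P1 -2.51 to -1.58 for Cav1, -1.79 to -1.1 for Cav2, -1.95 to -1.56 for Cav3, -1.08 to -0.73 for Dysf, 6148 to 6424 for genes called, -0.16 to 0.76 for Cav3 over Cav1, 0.48 to 0.79 for Cav2 over Cav1, 0.73 to 0.87 for Dysf over Cav3. They ran, in adult minus P3 -4.04 to -3.12 for Cav1, -3.06 to -2.37 for Cav2, 0.15 to 1.26 for Cav3, -1.0 to -0.69 for Dysf, 6658 to 6815 for genes called, 3.68 to 4.99 for Cav3 over Cav1, 0.75 to 1.14 for Cav2 over Cav1, -2.23 to -0.84 for Dysf over Cav3. They ran, in P3 minus P1 1.36 to 1.65 for Cav1, 1.14 to 1.44 for Cav2, -3.0 to -1.9 for Cav3, -0.23 to 0.16 for Dysf, 75 to 1189 for genes called, -4.58 to -3.55 for Cav3 over Cav1, -0.49 to -0.12 for Cav2 over Cav1, 1.67 to 3.06 for Dysf over Cav3. The count between P3 and P1 was 1097, 126, 121 and 232 without P1 replicates 1 to 4 and 1189, 190, 75 and 135 without P3 replicates 1 to 4. Reversed were Cav3 over Cav1 in adult minus P1 without adult replicate 7 (-0.16) and Dysf in P3 minus P1 without P1 replicate 2 (0.06) or 4 (0.16) or P3 replicate 1 (0.06) or 2 (0.08). Cav2 over Cav1 passed without adult replicate 4 (0.79 in adult minus P1 and 1.05 in adult minus P3).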

Other observations

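Fabp4, a fatty acid binding protein of adipocytes and capillary endothelium, was the 1 adipocyte marker of 5 in the table, and its spread among adults was wide, as that of Cav1 was. It had 6.37 RPKM in adult replicate 7, the adult library lowest in Cav1, and 1065 RPKM in adult replicate 4, the adult library highest in Cav1. It ran from 126 to 383 RPKM in P1 and from 449 to 1220 RPKM in P3.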
